A study of Arabidopsis thaliana with 12 samples.

Results

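The response of *A. thaliana* shoots to the mammalian androgen testosterone (TO) was described from 8 of the 12 RNAseq libraries of a study on mammalian steroids in plants. The tested plants were wild-type Col-0 seedlings treated for 1 h with 10 µM TO in 0.12% DMSO (4 biological replicates). They were compared with mock-treated Col-0 seedlings that received 0.12% DMSO alone (4 biological replicates). The other 4 libraries came from seedlings given 10 µM progesterone (PO) in 0.12% DMSO, which were fitted together with them. Directions rest on the treatment that the deposited labels give each library. The study's own list of named loci gives the opposite sign, at nearly the same size, for every locus named here that it also holds. It has *GSTU7* and *CYP81D11* as reduced and *MYB15* and *SDR5* as enhanced by TO. This bears on every direction given below. Which of the directions is right cannot be settled from the sources used here. In each group the plants had been moved to a medium poor in nutrients 2 days before the treatment. Leaves were harvested, and the age at the move is given as 7 days in one part of the labels and as 10 days in another. One dose and 1 time were measured, and the sources used here do not state how many plants made up a replicate.

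Total counts lay between 41036335 and 51856000 in the TO libraries and between 50443138 and 60728111 in the DMSO libraries. Of 38618 annotated loci, 23203 had enough counts to be tested. Values per library are given as CPM, counts scaled to the same library size, and logFC is the log2 ratio of TO to DMSO from the fitted model, given with its standard error. A locus was called at an adjusted p under 0.05. The leaf label was borne out by its markers. The 14 leaf marker genes, such as those of the Rubisco small subunit and the light-harvesting proteins, summed to between 49289 and 54298 CPM in TO and between 51107 and 63538 CPM in DMSO. The 18 root markers summed to between 315 and 462 CPM in TO and between 271 and 318 CPM in DMSO, led by the β-glucosidase gene *PYK10* (326, 188, 198 and 232 CPM in TO against 141, 178, 130 and 141 CPM in DMSO). The 16 seed markers summed to between 0.637 and 7.35 CPM in TO and between 0.402 and 12.7 CPM in DMSO, with the storage protein gene *CRA1* at 2.52 and 5.42 CPM in TO replicates 2 and 3 and at 7.52 CPM in DMSO replicate 4, and *CRU2*, *SESA4* and *SESA5* at 0 in all 8 libraries. The 23 flower and pollen markers summed to between 25.1 and 36.0 CPM in TO and between 22.9 and 40.8 CPM in DMSO. *SEP3* (9.11 to 14.9 CPM in TO, 8.72 to 17.9 CPM in DMSO) and *PI* (4.27 to 13.2 CPM in TO, 1.85 to 12.7 CPM in DMSO) were among them, and *AGL66* was at 0 in all 8. In whole leaves, fewer cells of a type and less RNA per cell cannot be told apart.

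Androgens and progestogens have been reported in many plants, where little is known of their function. Plants handle foreign lipophilic compounds with a detoxification machinery that works in steps. Cytochromes P450 and reductases first modify the compound, UDP-glycosyltransferases (UGTs) and glutathione transferases (GSTs) then attach a sugar or glutathione, and transporters of the ABC and MATE families move the conjugate into the vacuole or out of the cell. Genes of all steps are known to be induced together by reactive or foreign molecules, in part through TGA factors, bZIP proteins that bind the motif TGACG. The plant's own steroid hormones, the brassinosteroids (BRs), are perceived by the receptor kinase BRI1 and control growth.

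By the deposited labels, TO raised 57 loci (0.246% of those tested) and lowered 9 (0.0388%), together 66 (0.284%). The loci called higher are of 50 distinct regions, since some overlap each other on the chromosome. Their median logFC was 1.15, from 0.40 in *PYD1* (a gene of pyrimidine breakdown) to 3.42 in *GSTU25*. Of the 57, 35 had a mean in TO above 2 times that in DMSO. By role there were 11 enzymes such as reductases, oxygenases and hydrolases, 9 transporters, 7 GSTs, 7 regulators, 6 UGTs, 3 cytochromes P450, 5 stress and other proteins, 3 uncharacterized proteins and 6 loci that overlap another called one. All 4 TO libraries lay above all 4 DMSO libraries in each of the 57, and below them in each of the 9. Over all tested loci this was so for 673 (2.90%) above and 576 (2.48%) below. Since a locus whose groups overlap is seldom called, this adds no support to the calls.

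Below the called loci lay a broader set of small differences. At an unadjusted p under 0.05, 1076 loci (4.64%) were higher in TO and 1131 (4.87%) were lower, with a median size of 0.45 and 0.40 on the log2 scale. Of these, 167 of the higher and 135 of the lower loci differed more than 2-fold. The loci were split almost evenly by sign (50.1% positive, median logFC 0.0004), without a general shift. Counts of list members at an unadjusted p are given below beside these shares. The lists were chosen with earlier results of these data known, so a count above these shares is a description and not a test.

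The stretches of 250 bases before the annotated transcription start are shown for 6 loci that rose and 1 that fell, because the loci called higher held one short motif more often than all tested loci did. The 6 do not represent the loci called higher. All of them but *CYP72A13* hold this motif, TGACG, whereas 22 of the 57 (38.6%) hold it in this window. *UGT75B1*, *UGT73C1* and *ABCG34*, which are not shown, hold none there. Each is read 5′ to 3′ on the strand of its gene, from TAIR10.1. Capitals mark TGACG on either strand in the first 6 (CGTCA where it lies on the other strand) and GAANNTTC in the last. They belong to the GST gene *GSTU7* (chr2:12618900-12619149, minus strand), the Kunitz protease inhibitor gene *AT1G17860* (chr1:6148928-6149177, plus strand), *GSTU1* (chr2:12632539-12632788, minus strand), the alkenal reductase gene *AER* (chr5:5578087-5578336, minus strand), *DJ1A* (chr3:5047126-5047375, plus strand), *CYP72A13* (chr3:4924527-4924776, plus strand) and the co-chaperone gene *BAG6* (chr2:18985883-18986132, plus strand).
GSTU7: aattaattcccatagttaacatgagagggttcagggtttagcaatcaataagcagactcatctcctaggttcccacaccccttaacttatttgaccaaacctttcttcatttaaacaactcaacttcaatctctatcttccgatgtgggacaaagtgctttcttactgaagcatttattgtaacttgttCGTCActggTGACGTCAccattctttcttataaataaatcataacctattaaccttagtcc
AT1G17860: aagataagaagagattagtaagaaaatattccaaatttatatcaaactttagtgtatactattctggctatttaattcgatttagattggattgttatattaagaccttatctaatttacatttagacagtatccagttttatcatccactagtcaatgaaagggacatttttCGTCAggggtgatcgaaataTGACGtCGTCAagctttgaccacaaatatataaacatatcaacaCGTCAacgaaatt
GSTU1: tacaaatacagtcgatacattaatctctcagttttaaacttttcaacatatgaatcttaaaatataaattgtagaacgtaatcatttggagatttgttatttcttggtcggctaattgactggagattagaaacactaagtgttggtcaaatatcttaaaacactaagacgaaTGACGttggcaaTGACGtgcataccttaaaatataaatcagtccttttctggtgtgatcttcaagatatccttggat
AER: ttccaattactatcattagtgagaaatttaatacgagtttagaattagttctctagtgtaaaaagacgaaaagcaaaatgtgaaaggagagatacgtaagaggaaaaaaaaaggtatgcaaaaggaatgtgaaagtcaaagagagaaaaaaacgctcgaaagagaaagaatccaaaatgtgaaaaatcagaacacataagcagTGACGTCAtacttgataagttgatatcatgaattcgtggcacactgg
DJ1A: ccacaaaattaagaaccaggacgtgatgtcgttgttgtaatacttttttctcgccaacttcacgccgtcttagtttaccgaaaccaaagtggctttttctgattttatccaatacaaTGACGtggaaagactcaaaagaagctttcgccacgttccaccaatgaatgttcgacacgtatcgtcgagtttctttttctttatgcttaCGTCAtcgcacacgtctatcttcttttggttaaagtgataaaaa
CYP72A13: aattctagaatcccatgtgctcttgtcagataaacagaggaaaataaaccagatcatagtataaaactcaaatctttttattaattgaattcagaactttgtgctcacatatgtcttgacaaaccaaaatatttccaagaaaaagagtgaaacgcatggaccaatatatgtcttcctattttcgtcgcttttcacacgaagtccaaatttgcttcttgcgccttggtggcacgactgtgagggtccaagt
BAG6: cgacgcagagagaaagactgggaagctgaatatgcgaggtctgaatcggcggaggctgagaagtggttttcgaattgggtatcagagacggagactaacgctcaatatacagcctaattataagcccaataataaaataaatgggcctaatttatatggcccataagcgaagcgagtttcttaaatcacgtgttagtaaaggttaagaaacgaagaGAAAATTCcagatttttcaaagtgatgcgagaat

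TGACG was found 3 times before *GSTU7*, 4 times before *AT1G17860* and 2 times each before *GSTU1*, *AER* and *DJ1A*. The palindrome TGACGTCA counts on both strands, and it stands before *GSTU7* and *AER*. The nearest copy began 49 bases before the start of *GSTU7*, 13 before *AT1G17860*, 65 before *GSTU1* and 44 before both *AER* and *DJ1A*. *CYP72A13*, which rose as clearly, had none in this window. Over the 300 bases from 250 before to 50 after the start, 23 of the 57 loci called higher (40.4%) held TGACG, against 5406 of 22982 tested loci with a window (23.5%). At least 2 copies were held by 11 of the 57 (19.3%), against 4.7% of all. None of the 9 loci called lower held it. The element GAANNTTC, a core of heat shock elements, was in 9 of the 57 (15.8%), in 3 of the 9 lower ones (33.3%) and in 11.7% of all. The calmodulin-factor motif CGCGT was in 2 of the 57 (3.51%) against 9.38%, the G-box CACGTG in 5 (8.77%) against 8.06%, and the W-box TTGACC or TTGACT in 15 (26.3%) against 32.3%. A match in a window is not a binding site.

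Among the enzymes of the first step, 3 of 155 tested P450 genes were called, all of them higher. *CYP81D11*, a P450 known to answer to foreign compounds and jasmonates, had 49.8, 95.1, 83.4 and 37.1 CPM in TO against 7.26, 6.80, 6.44 and 13.2 CPM in DMSO (logFC 2.98 ± 0.31, adjusted p = 0.000997). *CYP72A13* had 415, 583, 706 and 476 CPM in TO against 132, 156, 165 and 181 CPM in DMSO (logFC 1.78 ± 0.17, adjusted p = 0.000458). *CYP89A5* had 36.5, 58.7, 63.1 and 51.6 CPM in TO against 23.5, 24.9, 26.4 and 32.2 CPM in DMSO (logFC 0.97 ± 0.15, adjusted p = 0.0142). In all 3 the lowest TO library lay above the highest DMSO library, although the TO values of *CYP81D11* differed more than 2-fold among themselves. Beyond these, 17 of the 155 P450 genes (11.0%) were higher at an unadjusted p and 7 (4.52%) were lower, against 4.64% and 4.87% of all loci, and without DMSO replicate 2 the number lower was 2. The higher ones included neighbours and relatives of the called genes, with *CYP72A15* at logFC 0.73 ± 0.16, *CYP72A14* at 1.39 ± 0.32, *CYP89A6* at 1.23 ± 0.33 and *CYP81D1* at 0.51 ± 0.13. Among the lower ones, *CYP706A2* had a logFC of -0.46 ± 0.17 and *CYP94C1*, which inactivates jasmonoyl-isoleucine, -0.74 ± 0.34. The median over all 155 was 0.11.

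Reductases of reactive carbonyls belong to the same step. *AER*, which reduces alkenals that arise when membrane lipids are oxidized, had 200, 217, 261 and 176 CPM in TO against 88.9, 97.0, 71.9 and 83.0 CPM in DMSO (logFC 1.33 ± 0.17, adjusted p = 0.00388). Its neighbour *AT5G16980*, a dehydrogenase of the same family, had 11.0, 15.9, 15.1 and 7.01 CPM in TO against 3.78, 2.29, 3.92 and 3.32 CPM in DMSO (logFC 1.88 ± 0.26, adjusted p = 0.00698). In both, all TO libraries lay above all DMSO libraries. Of 11 tested genes on the list of alkenal, ene and aldo-keto reductases, 5 (45.5%) were higher at an unadjusted p and none was lower, with a list median of 0.26. The 4 besides *AER* were *OPR2* (logFC 1.23 ± 0.28), *OPR1* (1.07 ± 0.30), *ChlAKR* (1.72 ± 0.48) and *AKR4C8* (0.53 ± 0.14). *OPR1* and *OPR2* code for ene reductases, and *ChlAKR* and *AKR4C8* for aldo-keto reductases that accept aldehydes. *DJ1A*, whose protein is linked to protection from oxidative stress, showed the tightest replicates of this class, with 300, 262, 271 and 272 CPM in TO against 167, 188, 165 and 175 CPM in DMSO (logFC 0.67 ± 0.08, adjusted p = 0.00161).

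The UGT list held 63 genes, which need not be the whole family, and 54 of them were tested. Of these 54, 19 (35.2%) were higher at an unadjusted p, 6 of them called, and none was lower. This share was above those of the P450 (11.0%), GST (26.7%), ABC (18.8%) and MATE (20.9%) lists. It was below that of the shorter reductase list (45.5%). *UGT75B1*, which can glucosylate auxin and abscisic acid, had 82.7, 141, 133 and 78.5 CPM in TO against 29.3, 35.0, 34.5 and 38.2 CPM in DMSO (logFC 1.67 ± 0.19, adjusted p = 0.00139). Its counts were identical to those of *AT1G05562*, annotated on the other strand of the same bases (chr1:1645300-1647435), so the reads of the 2 loci cannot be told apart. *DOGT1*, also known as *UGT73C5*, glucosylates the fungal toxin deoxynivalenol and BRs. It had 16.2, 28.2, 29.5 and 15.6 CPM in TO against 4.85, 5.96, 5.92 and 5.57 CPM in DMSO (logFC 2.00 ± 0.25, adjusted p = 0.00299). In both genes TO replicates 2 and 3 were high and 1 and 4 low, and the DMSO libraries lay close together. The neighbours *UGT73B1*, *UGT73B2* and *UGT73B3* rose together, with logFC of 0.90 ± 0.16, 1.94 ± 0.26 and 1.05 ± 0.16, within a group of 5 called loci on chr4:16343057-16350203. The sixth called gene, *UGT73C1*, was rare, with 2.96, 3.66, 5.74 and 2.24 CPM in TO against 0.431, 0.403, 0.286 and 0.677 CPM in DMSO (logFC 3.01 ± 0.34). Those at an unadjusted p only included *UGT74E2* (logFC 1.795 ± 0.37), which acts on indole-3-butyric acid, *UGT74F2* (0.60 ± 0.16), which acts on salicylic acid, and *UGT71B1* (0.41 ± 0.09). The list median was 0.15, and each of the 4 TO libraries had a higher list median than each DMSO library.

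GSTs attach glutathione to electrophilic compounds. *GSTU7* had 164, 217, 214 and 130 CPM in TO against 52.8, 56.5, 43.1 and 44.3 CPM in DMSO (logFC 1.88 ± 0.18, adjusted p = 0.000458). It overlaps the noncoding locus *AT2G08340* and the end of *MTPB1*, both called as well, and the reads of overlapping loci cannot be assigned with certainty. *AT4G19880*, annotated as a GST family protein, had 130, 131.5, 159 and 106 CPM in TO against 81.3, 83.6, 64.3 and 68.2 CPM in DMSO (logFC 0.82 ± 0.14, adjusted p = 0.0193). It stayed called in 4 of the 8 fits without 1 library. Besides *GSTU7*, the called genes of the tau class were rare transcripts. *GSTU25* had 2.05, 1.34, 2.99 and 1.101 CPM in TO against 0.128, 0.201, 0.286 and 0.0796 CPM in DMSO (logFC 3.42 ± 0.54, adjusted p = 0.0142), from 57 to 124 counts in TO and 4 to 14 in DMSO. *GSTU2* had 18, 19, 26 and 18 counts in TO against 2, 4, 2 and 4 counts in DMSO, and was lost as a call in each of the 8 fits without 1 library (adjusted p = 0.0358 with all). *GSTU1*, *GSTU8* and *GSTU24* had logFC of 2.35 ± 0.29, 1.17 ± 0.16 and 1.85 ± 0.34, and *GSTU1* with *GSTU2*, and *GSTU24* with *GSTU25*, are neighbours with similar sequences between which reads could have been split. Of 45 tested GST genes, 12 (26.7%) were higher at an unadjusted p and 1 (2.22%) was lower, *GSTF5*. The abundant *GSTU19* was among the 12 with 304, 272, 296 and 254 CPM in TO against 227, 226, 225 and 243 CPM in DMSO (logFC 0.29 ± 0.08). Unlike for the UGTs, the list medians of the libraries overlapped, since DMSO replicate 2 (0.21) lay above TO replicates 2, 3 and 4.

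**Figure D1:**
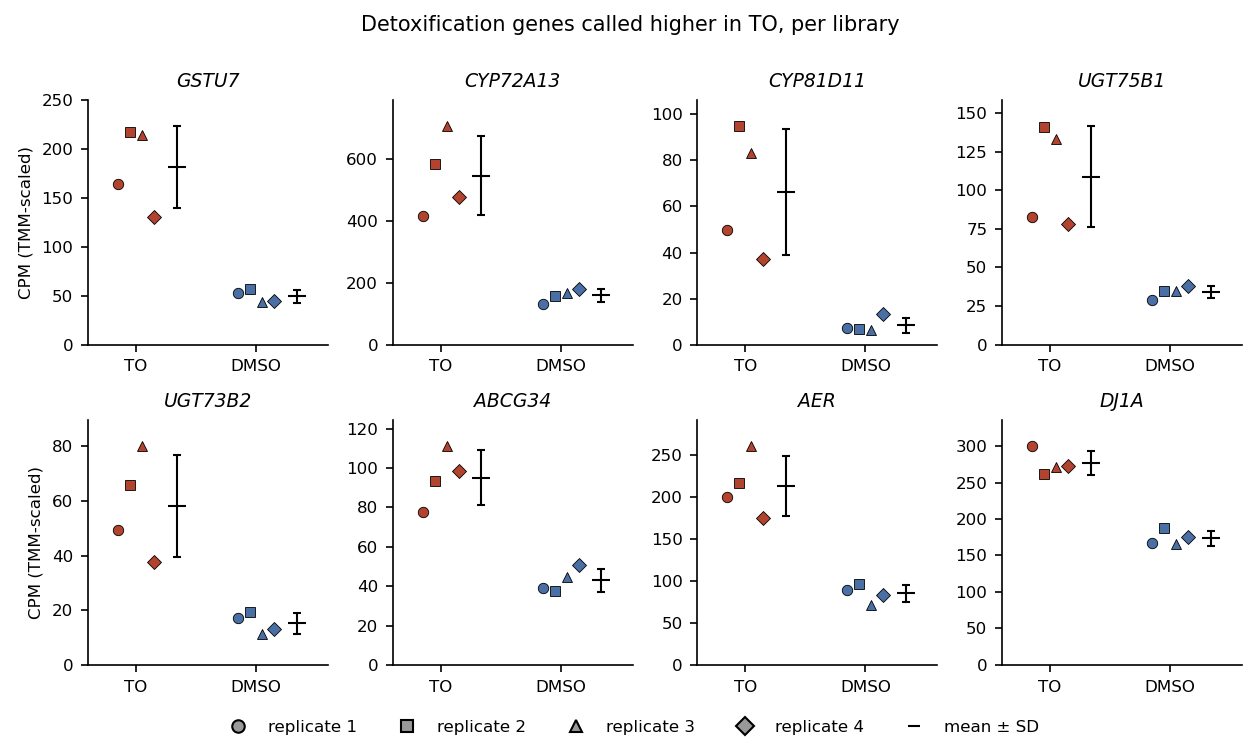
Detoxification genes called higher in TO. CPM after scaling (vertical axis, from 0) is plotted for each TO and DMSO library, with a symbol for each replicate and the mean ± SD (n = 4) as a bar. In each panel all TO values lie above all DMSO values, and TO replicates 2 and 3 are above 1 and 4 in *GSTU7*, *CYP72A13*, *CYP81D11*, *UGT75B1* and *UGT73B2*.

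Transporters for conjugates formed the last group of the pathway. Of 69 tested ABCB, ABCC and ABCG genes, 4 were called higher, 13 (18.8%) were higher at an unadjusted p and 2 (2.90%) were lower. *ABCG34*, an exporter of the phytoalexin camalexin, had 77.6, 93.3, 111 and 98.5 CPM in TO against 39.0, 37.8, 44.5 and 50.7 CPM in DMSO (logFC 1.15 ± 0.13, adjusted p = 0.00161). *ABCC2*, which moves glutathione conjugates into the vacuole, had 41.6, 65.3, 66.0 and 53.0 CPM in TO against 20.3, 23.8, 25.8 and 33.5 CPM in DMSO (logFC 1.13 ± 0.16, adjusted p = 0.00841). *ABCB4*, known as an auxin transporter, and its relative *ABCB11* had logFC of 1.15 ± 0.20 and 1.63 ± 0.26. The related vacuolar pump gene *ABCC1* was higher at an unadjusted p only (logFC 0.47 ± 0.10), as were *ABCC10* (1.199 ± 0.29) and *ABCG37* (0.86 ± 0.23). Of 43 MATE genes, 9 (20.9%) were higher and 2 (4.65%) lower at an unadjusted p, and 2 were called. *ALF5*, which gives roots resistance to toxic compounds, had 21.2, 17.8, 19.1 and 17.1 CPM in TO against 13.2, 11.3, 11.6 and 11.9 CPM in DMSO (logFC 0.65 ± 0.10, adjusted p = 0.0133). *AT3G21690* had 42.4, 40.8, 48.1 and 41.2 CPM in TO against 30.03, 28.9, 26.5 and 31.5 CPM in DMSO (logFC 0.56 ± 0.08, adjusted p = 0.00841). The differences of these 2 MATE genes were smaller than those of the called ABC genes, and their replicates were close. The lower ones were *TT12* (logFC -0.44 ± 0.15), which loads flavonoid precursors of the seed coat into vacuoles, and *EDS5* (-0.30 ± 0.13), which exports salicylic acid from chloroplasts.

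The 3 other called transporters are of families that carry nitrogen compounds or metal ions. *DUR3*, the urea symporter, had 11.1, 11.3, 11.0 and 10.7 CPM in TO against 5.55, 4.51, 5.88 and 7.56 CPM in DMSO (logFC 0.91 ± 0.14, adjusted p = 0.0142). The amino acid transporter gene *AT1G08230* had a logFC of 0.54 ± 0.10 and *MTPB1* of 1.17 ± 0.20. The enzymes called beside the reductases were the copper amine oxidase *AT4G12290* (logFC 0.81 ± 0.13), the dehydrogenase *AT4G13180* (1.26 ± 0.18), the hydrolase *AT1G68620* (1.05 ± 0.15), the dioxygenase *AT1G14130* (0.75 ± 0.13), the methyltransferase *AT1G15125* (0.93 ± 0.16), the acyltransferase *AT5G16410* (0.94 ± 0.18), the wall glycan synthase gene *CSLE1* (1.18 ± 0.17) and *PYD1* (0.40 ± 0.08). *AT1G15125* had 137 CPM in TO replicate 1 against 91.0, 86.7 and 93.6 CPM in the other TO libraries. Among the stress proteins, *AT1G17860* had 125, 120, 126 and 95.1 CPM in TO against 52.4, 55.5, 45.0 and 42.5 CPM in DMSO (logFC 1.25 ± 0.14, adjusted p = 0.00139). It shares its reads in part with the antisense locus *AT1G05347*. *AT5G61820*, annotated as stress up-regulated, had a logFC of 1.01 ± 0.13, the DnaJ-domain gene *AT3G13310* of 1.503 ± 0.24, the latex-protein-like gene *MLP165* of 1.64 ± 0.29 and *AT5G40720*, annotated as a zinc finger protein, of 0.70 ± 0.13. The uncharacterized *AT5G14730*, *AT1G13670* and *AT1G21520* had logFC of 1.31 ± 0.20, 0.82 ± 0.15 and 0.88 ± 0.16.

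The 7 regulators that rose did not include a TGA factor. *WRKY31* had 0.948, 1.44, 1.06 and 1.00 CPM in TO against 0.128, 0.282, 0.143 and 0.239 CPM in DMSO (logFC 2.49 ± 0.39, adjusted p = 0.0142). *HY5*, a bZIP factor of light signalling, had 8.66, 10.085, 9.69 and 12.2 CPM in TO against 5.38, 6.14, 5.74 and 6.57 CPM in DMSO (logFC 0.77 ± 0.15, adjusted p = 0.0438). *RVE2*, a clock-related MYB factor, had 12.4, 10.9, 8.87 and 12.9 CPM in TO against 4.93, 6.78, 4.66 and 5.37 CPM in DMSO (logFC 1.05 ± 0.19, adjusted p = 0.0358). All 3 were near the threshold, since *WRKY31* stayed called in 4 of the 8 fits without 1 library and *HY5* and *RVE2* in 1 each. The B-box gene *AT2G47890*, the PLATZ gene *AT1G21000*, the kinase gene *AT4G23050* and the MAP kinase kinase gene *MKK9* had logFC of 0.57 ± 0.08, 0.75 ± 0.14, 0.97 ± 0.18 and 0.59 ± 0.11. Of 13 known regulators of detoxification, none was called. At an unadjusted p, 5 of them (38.5%) were higher and none was lower: the NAC factors *NAC032* (logFC 0.79 ± 0.21) and *ATAF1* (0.50 ± 0.17), the TGA factors *TGA7* (0.53 ± 0.18) and *TGA1* (0.20 ± 0.09), and their partner glutaredoxin *GRX480* (0.85 ± 0.37). Without TO replicate 2 the number was 2, and without TO replicate 4 it was 3.

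**Figure D2:**
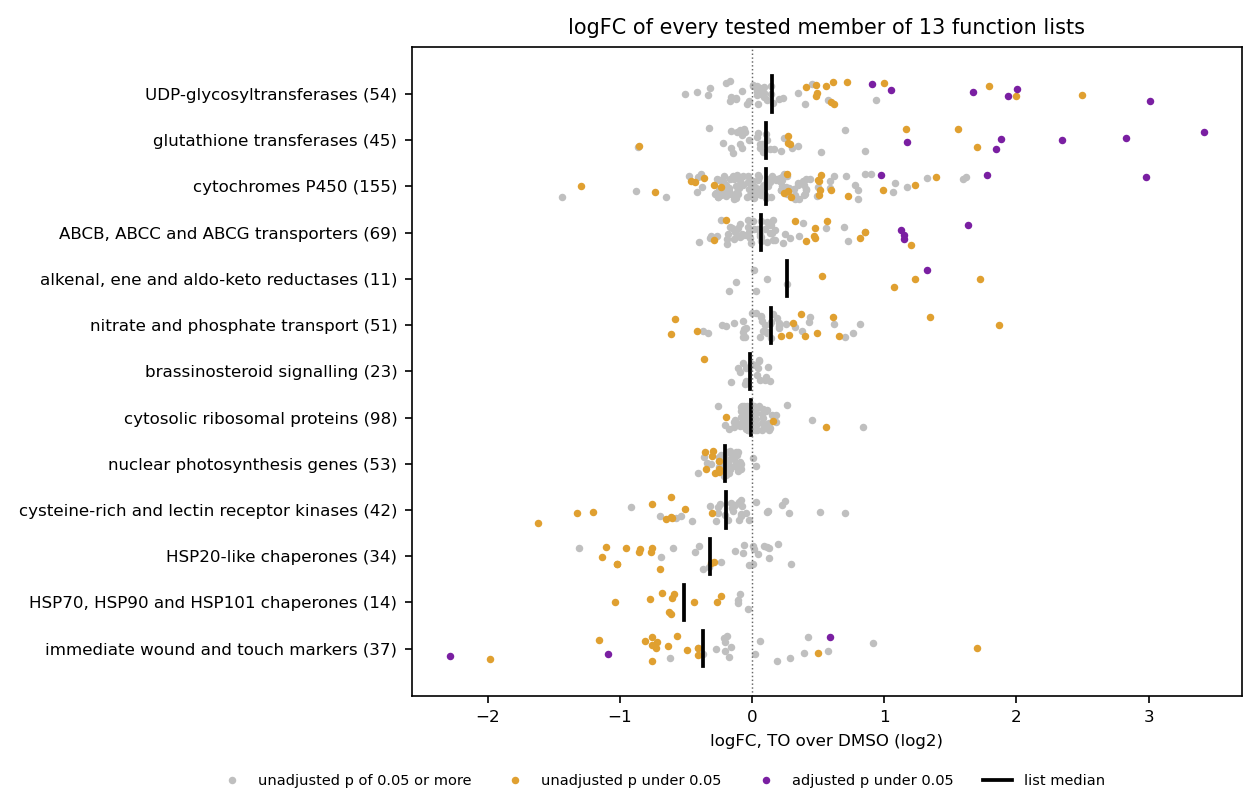
logFC of TO over DMSO (horizontal axis, log2) for each tested member of 13 function lists, with the number of members in brackets. Colours separate members called at an adjusted p, members at an unadjusted p under 0.05 and the rest, and the black line is the list median. Detoxification lists have tails to the right with medians from 0.07 to 0.26, and chaperones, receptor kinases, wound markers and photosynthesis genes have medians from -0.51 to -0.20.

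The chaperone lists had negative medians. Of the 9 loci called lower (0.0388% of those tested), 2 code for chaperones or co-chaperones. The DnaJ-domain gene *AT3G13310* went the other way and was called higher (logFC 1.503 ± 0.24, adjusted p = 0.0142). *BAG6*, a heat-induced co-chaperone with a part in basal immunity, had 34.5, 31.4, 29.6 and 24.0 CPM in TO against 104, 108, 56.7 and 63.6 CPM in DMSO (logFC -1.47 ± 0.22, adjusted p = 0.0109). The DnaJ gene *AT2G20560* had 80.7, 79.4, 70.1 and 55.9 CPM in TO against 158, 145, 106 and 119 CPM in DMSO (logFC -0.88 ± 0.16, adjusted p = 0.0364). In both, DMSO replicates 1 and 2 stood high. All 14 tested HSP70, HSP90 and HSP101 genes had a negative logFC, 10 of them (71.4%) at an unadjusted p and none called, with a median of -0.51. *HSP101*, the disaggregase of heat tolerance, had 189, 162, 163 and 109 CPM in TO against 406, 383, 213 and 279 CPM in DMSO (logFC -1.04 ± 0.22, adjusted p = 0.0801). *HSP70* had 1090, 1135, 997 and 952 CPM in TO against 2066, 1864, 1216 and 1555 CPM in DMSO (logFC -0.68 ± 0.19), and the mitochondrial *CLPB4* 37.0, 35.1, 34.3 and 31.7 CPM in TO against 62.2, 51.9, 42.1 and 54.4 CPM in DMSO (logFC -0.61 ± 0.12). The groups did not overlap in 9 of the 14, these 3 included, while TO lay wholly below DMSO in 2.48% of all tested loci.

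Of 34 HSP20-like genes, 12 (35.3%) were lower and none was higher at an unadjusted p (median -0.32). *AT1G54050* had 47.7, 39.8, 46.8 and 32.2 CPM in TO against 134, 84.0, 54.9 and 64.2 CPM in DMSO (logFC -1.02 ± 0.25), and *HSP17.6A* 135, 134, 126 and 95.7 CPM in TO against 329, 251, 148 and 160 CPM in DMSO (logFC -0.86 ± 0.26). The same libraries were high in both, and *HSP23.6-MITO* no longer separated the groups, with 6.61, 8.49, 9.83 and 8.46 CPM in TO against 33.5, 20.3, 8.01 and 11.2 CPM in DMSO. DMSO replicate 1 was the highest DMSO library in 10 of the 12 and in 8 of the 10 larger chaperones, and DMSO replicate 3 the lowest in 11 and 9. Without DMSO replicates 1 and 2, a choice made after the values were seen, the HSP20-like list had 1 member lower at an unadjusted p and a median of -0.10, and the larger chaperones had 3 and -0.30. In that fit none of the 9 lower loci was called (edgeR, 962 loci lower at an unadjusted p). The part of these 2 libraries in the result was not tested.

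Of 7 BAG co-chaperone genes 3 (42.9%) were lower at an unadjusted p, *BAG6* among them, and none was higher (median -0.24). Of 18 heat stress factors 4 were lower and 1 was higher. Without DMSO replicate 2, 2 were lower and 3 higher, with a list median of -0.004. *HSFA2*, the heat-induced amplifier of this response, had 90.6, 77.5, 81.3 and 45.8 CPM in TO against 181, 196, 135 and 112 CPM in DMSO (logFC -1.08 ± 0.22). The constitutive *HSC70-1*, in contrast, had 3434, 4261, 4392 and 4210 CPM in TO against 3803, 4546, 4125 and 4842 CPM in DMSO, with overlapping groups. *BAG5* and *BAG7* had logFC of -0.42 ± 0.10 and -0.24 ± 0.08, and of 14 genes of endoplasmic reticulum stress only *BZIP28* (-0.32 ± 0.08) and *BZIP60* (-0.50 ± 0.13) were lower at an unadjusted p.

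Rapid wound, touch and defence genes were the other group with low values in TO. *MYB15*, a factor of cold and defence lignin responses, had 3.58, 1.3985, 4.00 and 6.08 CPM in TO against 12.5, 33.7, 15.3 and 12.0 CPM in DMSO (logFC -2.29 ± 0.40, adjusted p = 0.0262). *ACS6*, which makes the precursor of ethylene, had 7.12, 5.59, 5.52 and 6.45 CPM in TO against 12.0, 19.4, 10.2 and 10.9 CPM in DMSO (logFC -1.09 ± 0.20, adjusted p = 0.0364). In both, all TO libraries lay below all DMSO libraries, and DMSO replicate 2 was the highest. Of 37 immediate wound and touch markers, 15 (40.5%) were lower and 3 (8.11%) higher at an unadjusted p, with a median of -0.37. *WRKY40* had 35.6, 9.32, 25.2 and 20.6 CPM in TO against 47.2, 86.8, 41.6 and 27.0 CPM in DMSO (logFC -1.16 ± 0.37), and the calmodulin-like gene *TCH3* 626, 275, 401 and 504 CPM in TO against 592, 1261, 630 and 511 CPM in DMSO (logFC -0.73 ± 0.27). The groups overlapped in both, since TO replicate 1 was as high as some DMSO libraries. DMSO replicate 2 was the highest DMSO library and TO replicate 2 the lowest TO library in 13 of the 15 each. Without DMSO replicate 2, 10 members of the list were lower at an unadjusted p and the list median was -0.03. The summed level of the list lay between 831 and 1399 CPM in TO and between 1362 and 2587 CPM in DMSO, and the part of DMSO replicate 2 in the difference was not tested.

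**Figure D3:**
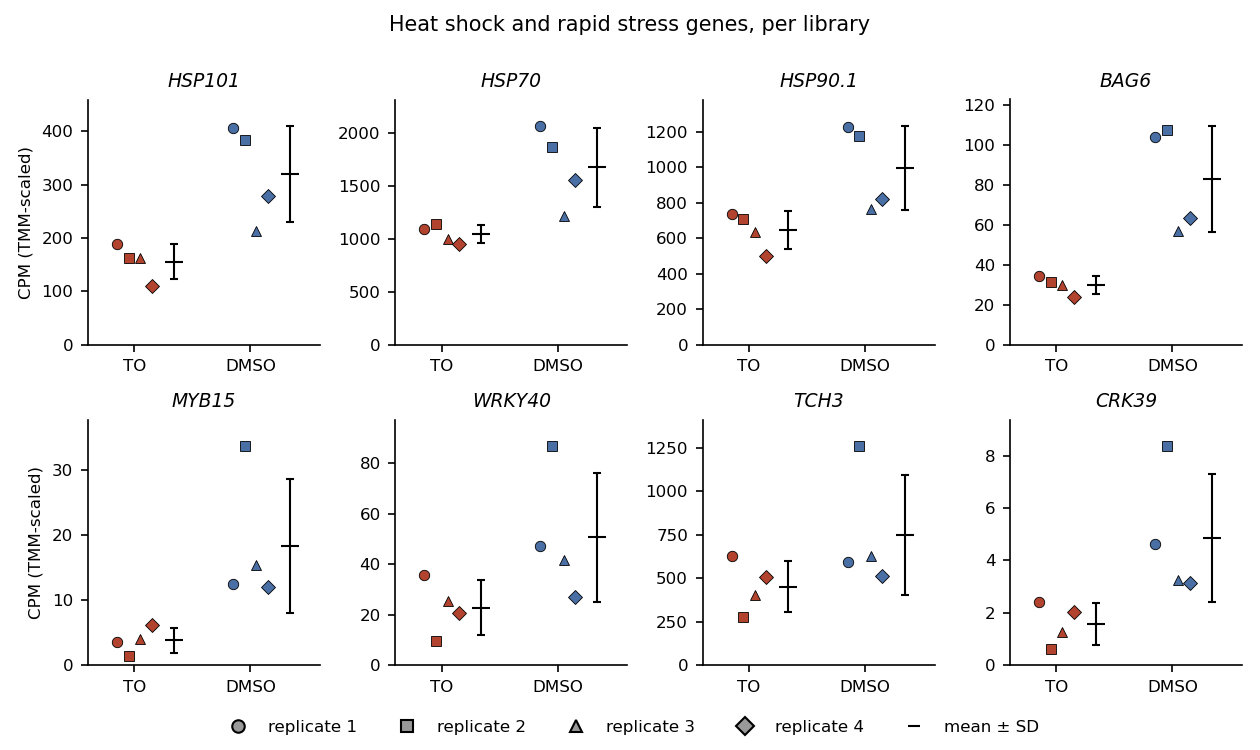
Heat shock genes (upper row) and rapid stress genes (lower row). CPM after scaling (vertical axis, from 0) is plotted for each TO and DMSO library, with a symbol for each replicate and the mean ± SD (n = 4) as a bar. DMSO replicates 1 and 2 are high in the upper row (*HSP101* 406 and 383 CPM), and DMSO replicate 2 alone is high in the lower row (*MYB15* 33.7 CPM).

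DMSO replicate 2 stood high in receptor and signalling genes as well. Of 42 cysteine-rich and lectin receptor kinase genes, 10 (23.8%) were lower and none higher at an unadjusted p (median -0.20). *CRK39* had 2.42, 0.591, 1.25 and 2.03 CPM in TO against 4.61, 8.37, 3.25 and 3.15 CPM in DMSO (logFC -1.62 ± 0.42), and *CES101* 8.72, 6.38, 7.04 and 6.80 CPM in TO against 11.4, 13.5, 10.6 and 9.91 CPM in DMSO (logFC -0.65 ± 0.14). The groups did not overlap in either, and DMSO replicate 2 was the highest DMSO library in 9 of the 10. The number lower was 6 without TO replicate 2 and 15 without DMSO replicate 4, and without DMSO replicates 1 and 2 it was 4 with a median of -0.04. The danger peptide precursor gene *PROPEP3* had 0.696, 0.236, 0.241 and 0.232 CPM in TO against 0.925, 2.70, 1.18 and 1.02 CPM in DMSO (logFC -2.03 ± 0.49), and *MPK11* a logFC of -2.03 ± 0.54. Of the 38 genes of this list 6 (15.8%) were lower and 3 (7.89%) higher at an unadjusted p, the higher ones being *MKK9*, *MPK7* and *MPK1*. The 58 WRKY genes showed no common direction, with 6 higher and 7 lower at an unadjusted p (4 lower without DMSO replicate 2). *WRKY33*, *WRKY53* and *WRKY46* had logFC of -0.75 ± 0.27, -0.57 ± 0.20 and -0.81 ± 0.37, and *WRKY45* and *WRKY9* of 0.84 ± 0.23 and 0.77 ± 0.23. In the salicylic acid pathway *EDS16*, the synthase gene of that hormone, had a logFC of -0.48 ± 0.14 and *EDS1* of -0.71 ± 0.23, and *NPR4*, a receptor gene, of 0.40 ± 0.15.

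The remaining 5 lower loci shared no function. *NEET*, for an iron-sulfur protein of chloroplasts and mitochondria, had 65.5, 51.1, 53.0 and 46.7 CPM in TO against 73.7, 85.2, 82.7 and 85.2 CPM in DMSO (logFC -0.60 ± 0.10, adjusted p = 0.0214). *AT1G57980*, annotated as a nucleotide-sugar transporter gene, had 7.25, 7.11, 7.54 and 7.26 CPM in TO against 11.9, 9.60, 11.0 and 11.3 CPM in DMSO (logFC -0.59 ± 0.10, adjusted p = 0.0244). In *AT1G57980* the 4 TO libraries were close together. *AT4G09150*, annotated as a T-complex protein gene, had a logFC of -0.53 ± 0.10, and the noncoding *AT3G03215*, which lies wholly within *AT3G16050*, of -0.86 ± 0.16. The kinase-like gene *AT3G56600* had 2, 6, 2 and 4 counts in TO against 46, 20, 22 and 12 counts in DMSO (logFC -2.65 ± 0.50, adjusted p = 0.0441). Without TO replicate 3 none of the 9 was called (edgeR), and with the TO and DMSO libraries fitted alone 1 of the 9 was.

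Photosynthesis genes lay slightly and evenly lower. Of 53 tested nuclear genes for photosystems, antennae and carbon fixation, 51 had a negative logFC, 8 (15.1%) were lower at an unadjusted p, none was higher and none was called. *PSAN*, for a subunit of photosystem I, had 1480, 1248, 1296 and 1178 CPM in TO against 1577, 1798, 1687 and 1599 CPM in DMSO (logFC -0.36 ± 0.11), and *PSBR*, for one of photosystem II, 5384, 5068, 5912 and 5145 CPM in TO against 6420, 6459, 6552 and 6183 CPM in DMSO (logFC -0.25 ± 0.10). The groups did not overlap in these, but the list medians of the libraries did (-0.11, -0.22, -0.13 and -0.32 in TO, -0.18, 0.11, -0.05 and 0.06 in DMSO). The number lower at an unadjusted p was 16 without DMSO replicate 1, 13 without TO replicate 1, 4 without DMSO replicate 4 and 3 without TO replicate 4. The 10 loci with the most counts, mostly of photosynthesis, took 7.79% ± 0.57 of the counts in TO and 8.66% ± 0.53 in DMSO (SD, n = 4 each), a difference of -0.878 percentage points (exact permutation test, two-sided, p = 0.0857, adjusted over 3 shares 0.257, smallest possible p 0.0286). Chloroplast-encoded genes did not follow: their share was 0.746% to 1.59% in TO and 0.850% to 1.25% in DMSO, and 6 of 118 were higher and 2 lower at an unadjusted p, with TO replicate 1 low (list median -0.38). Without that library 18 were higher, and without TO replicate 4 none was. Cytosolic ribosomal protein genes were flat, with 2 of 98 higher, 1 lower and a median of -0.01.

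Nutrient and clock genes gave small signals in addition. Of 51 genes of nitrate and phosphate transport, 10 (19.6%) were higher and 3 (5.88%) lower at an unadjusted p, none was called, and the list medians of all TO libraries (0.09 to 0.24) lay above those of the DMSO libraries (-0.05 to 0.05). *NRT2.5*, a nitrate transporter gene of nitrogen-starved plants, had 0.580, 0.630, 0.795 and 1.58 CPM in TO against 0.160, 0.282, 0.306 and 0.239 CPM in DMSO (logFC 1.87 ± 0.67), and *G3Pp1*, a glycerol-3-phosphate transporter gene, 3.21, 7.17, 5.86 and 5.31 CPM in TO against 1.499, 2.66, 2.04 and 2.31 CPM in DMSO (logFC 1.34 ± 0.44). The nitrate reductase gene *NIA1* was among the lower ones (-0.61 ± 0.23). Without TO replicate 3 the number higher was 6. Of 22 clock genes, 6 (27.3%) were lower and 2 (9.09%) higher at an unadjusted p. The morning genes *CCA1* and *LHY* had logFC of -0.72 ± 0.30 and -0.72 ± 0.28, and the evening gene *ELF4* 60.2, 44.2, 51.1 and 59.99 CPM in TO against 38.2, 43.6, 43.0 and 39.4 CPM in DMSO (logFC 0.39 ± 0.10). The number lower was 1 without DMSO replicate 2 or TO replicate 4 and 3 to 5 without 1 of the others.

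Growth and hormone genes showed no common direction. None of 23 BR signalling genes was called, and 1 was lower at an unadjusted p (*BEH3*, logFC -0.37 ± 0.15). The list median was -0.02. The receptor gene *BRI1* had 205, 238, 214 and 228 CPM in TO against 219, 202, 207 and 242 CPM in DMSO (logFC 0.03 ± 0.10), and the sign of *BRI1*, of *BSK1* (0.05 ± 0.11) and of *DET2* (-0.06 ± 0.09), the steroid reductase gene of BR synthesis, turned in fits with 1 library left out. Among 16 genes of BR synthesis and inactivation, 2 were higher at an unadjusted p, the glucosyltransferase genes *DOGT1* and *UGT73C6*, which inactivate BRs. *SDR5*, for a short-chain dehydrogenase, had 1.70, 1.04, 2.27 and 1.16 CPM in TO against 3.78, 7.75, 2.25 and 1.51 CPM in DMSO (logFC -1.31 ± 0.45, adjusted p = 0.334). The study reports *SDR5* as upregulated by TO, the opposite direction. Early growth genes were mixed. Of 26 Aux/IAA genes 3 were higher at an unadjusted p, and of 65 SAUR genes 1 was higher and 2 lower. On the list of 14 PRE, BEE and related bHLH genes 1 was higher, *IBH1*, which is itself neither a PRE nor a BEE gene. Of 24 expansin genes 3 were higher and 2 lower. Of 25 XTH genes 1 was higher and 5 lower (3 without any one of DMSO replicates 1 and 3 and TO replicates 2 and 3). The alpha-expansin gene *EXPA11* had 5.41, 4.14, 3.21 and 4.29 CPM in TO against 2.78, 1.99, 2.17 and 2.37 CPM in DMSO (logFC 0.87 ± 0.20), and the touch-induced *TCH4* 134, 105, 109 and 214 CPM in TO against 165, 225, 272 and 211 CPM in DMSO (logFC -0.64 ± 0.24). The groups were apart in *EXPA11* and overlapped in *TCH4*. Sterol genes were flat, with 2 of 23 higher at an unadjusted p, one of which is the stigmasterol synthase gene *CYP710A1* (0.99 ± 0.30).

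Jasmonate genes split by gene. *LOX2* had 39.0, 20.1, 28.6 and 96.2 CPM in TO against 17.5, 11.7, 21.1 and 25.9 CPM in DMSO (logFC 1.27 ± 0.42), with TO replicate 4 far up, while *LOX4* had 7.06, 3.51, 5.74 and 9.02 CPM in TO against 11.9, 17.8, 9.23 and 11.0 CPM in DMSO (logFC -0.98 ± 0.35). Both code for lipoxygenases at the entry to jasmonate synthesis. Of 20 abscisic acid response genes 1 was higher (*ABF3*, 0.55 ± 0.11) and 1 lower (*RAB18*, -1.002 ± 0.41). In phenylpropanoid synthesis, *4CL1* (-0.95 ± 0.26) and *PAL1* (-0.94 ± 0.36) were lower at an unadjusted p, again with DMSO replicate 2 the highest (77.8 CPM of *4CL1* and 76.4 CPM of *PAL1*). Without DMSO replicates 1 and 2 the logFC of *PAL1* was 0.05. The glutathione synthesis gene *GSH1* had 221, 195, 208 and 246 CPM in TO against 164, 163, 188 and 199 CPM in DMSO (logFC 0.28 ± 0.10).

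The replicates differed in how far they responded. Over the 57 loci called higher, the median log2 deviation from the DMSO mean was 1.04, 1.197, 1.38 and 0.97 in TO replicates 1 to 4, and -0.08, 0.14, -0.03 and 0.04 in DMSO replicates 1 to 4. TO replicate 3 was the highest TO library in 33 of the 57 and replicate 4 the lowest in 33, while replicate 1 was the lowest in 19. Replicate 3 had the fewest counts of the 8 libraries (41036335). Without TO replicate 3, 26 of the 57 stayed called, and without TO replicate 2 it was 30. Leaving out DMSO replicate 1, 2, 3 or 4 left 32, 44, 30 and 35 of the 57, and leaving out TO replicate 1 or 4 left 44 each, and the sign held in all 66 loci in each fit in which they were tested. In DMSO, replicate 2 was the highest in 29 of the 57 and replicate 1 the lowest in 25. In the 9 loci called lower, the highest DMSO library was replicate 2 in 5 and replicate 1 in 4, and TO replicate 4 was the lowest TO library in 5.

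**Figure D4:**
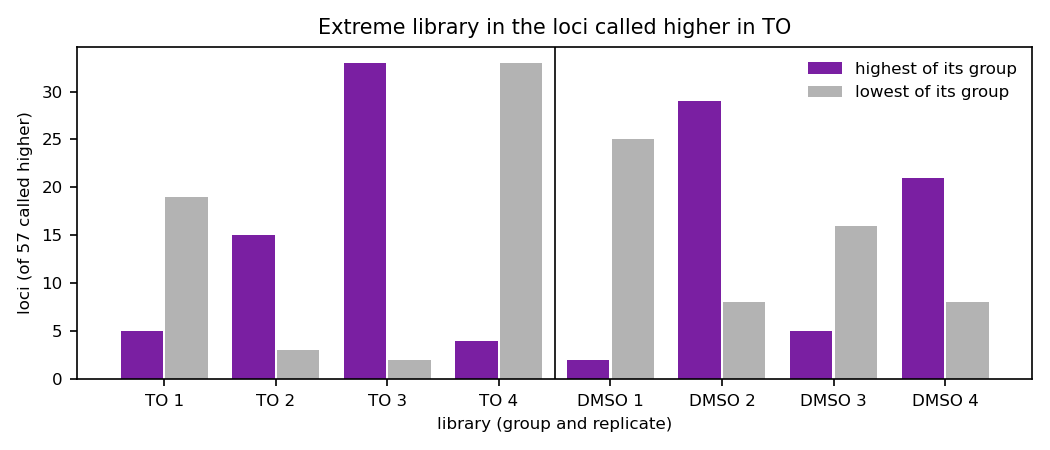
How often each library was the highest (purple) or the lowest (grey) of its 4 replicates over the 57 loci called higher in TO. The vertical axis counts loci from 0. TO replicate 3 was highest in 33 and TO replicate 4 lowest in 33, and DMSO replicate 2 was highest in 29.

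Across all loci the groups were close. Spearman correlations of log2 CPM over loci, which are not independent replicates, were 0.987 to 0.992 between TO libraries, 0.986 to 0.993 between DMSO libraries and 0.980 to 0.991 between a TO and a DMSO library. The first principal component (23.9% of the variance) did not separate the groups: TO replicates 1 to 4 lay at -0.04, 0.07, 0.17 and 0.27 and DMSO replicates 1 to 4 at -0.34, -0.16, -0.01 and 0.04. The root mean square distance of a library from the mean of the other 3 of its group was 0.378 to 0.445 in TO and 0.392 to 0.482 in DMSO on the log2 scale, largest in DMSO replicate 1 and smallest in TO replicate 3. Sample weights estimated from the fit ran from 0.806 (replicate 1) to 2.04 (replicate 3) in TO and from 0.456 (replicate 1) to 2.02 (replicate 3) in DMSO, where replicate 2 had 0.735. With these weights, which give DMSO replicates 1 and 2 less influence, limma called 106 loci higher and 28 lower, among them all 66.

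**Figure D5:**
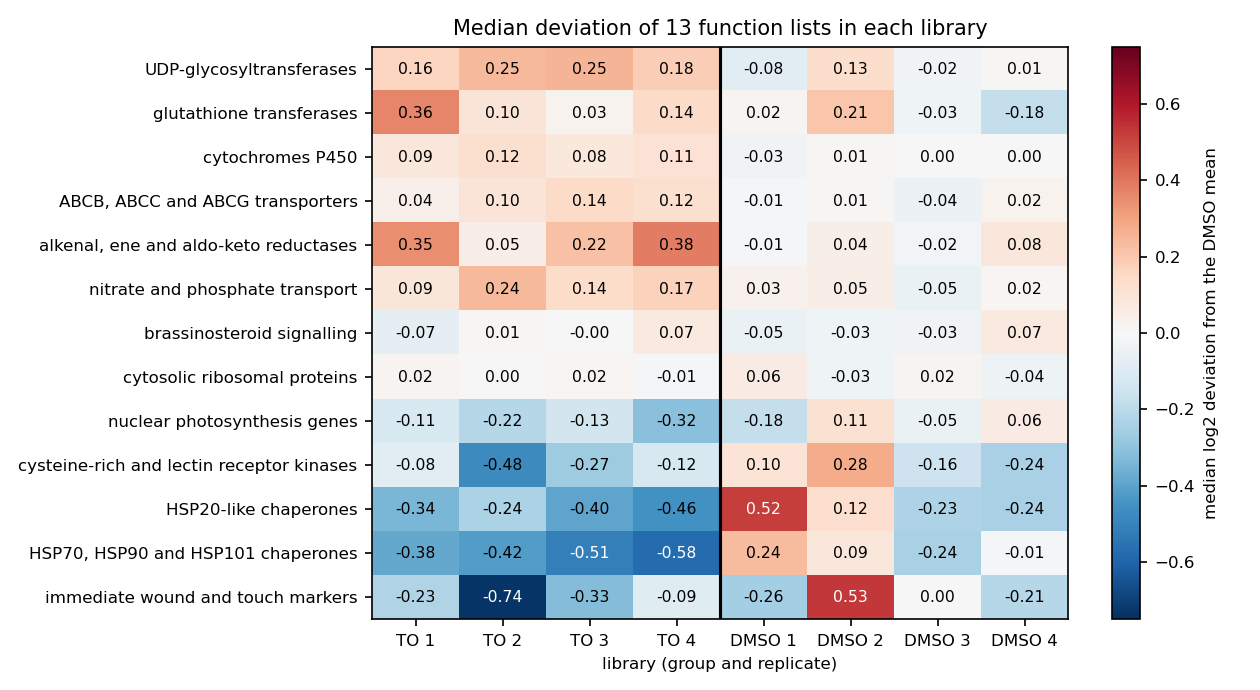
Median log2 deviation from the DMSO mean over the tested members of 13 function lists (rows) in each TO and DMSO library (columns), with the value in each cell. The 4 TO libraries share the sign for UGTs (0.16 to 0.25) and for the larger chaperones (-0.58 to -0.38), whereas wound markers range from -0.74 to -0.09 in TO and from -0.26 to 0.53 in DMSO.

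The 2 steroids were set side by side, since both comparisons share the DMSO libraries. Of the 57 loci called higher for TO, 33 were also called for PO over DMSO, and of the 9 called lower 0 were. Over all tested loci, 39 were called for PO. With shared DMSO libraries the 2 comparisons are not independent. *GSTU7* had a logFC of 1.88 for TO over DMSO and of 1.72 for PO over DMSO, and *CYP81D11* of 2.98 and 2.85. *BAG6* had -1.47 for TO and -0.91 for PO, and *MYB15* -2.29 for TO and -1.88 for PO. TO over PO was tested in the same fit: no locus was called (edgeR, smallest adjusted p = 0.628), and 1782 loci had an unadjusted p under 0.05, among them 17 of the 66. DESeq2 called 6 loci for TO over PO, including *MLP165*, and limma with sample weights called 0. *MLP165* had 2.48, 4.27, 3.21 and 2.92 CPM in TO against 0.925, 1.25, 1.21 and 0.756 CPM in DMSO (adjusted p = 0.0358), and its logFC was 0.04 for PO over DMSO and 1.59 for TO over PO (edgeR, unadjusted p = 9.3e-05). *GSTU25* had 3.42 for TO over DMSO, 1.72 for PO over DMSO and 1.70 for TO over PO (unadjusted p = 0.0034).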

How the data were processed

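RNA from leaves of Col-0 seedlings was sequenced (TRIzol extraction, NEBNext Ultra II kit). Per the submitters' processing notes the authors used bcl2fastq 2.20, fastp 0.23.2, FastQC 0.11.9, HISAT2 2.2.1, SAMtools 1.11 and featureCounts 2.0.1 with the TAIR10 genome. The deposited values are raw counts per locus, not normalised. Whether strand was used and how overlapping loci and read pairs were counted is not given in the sources used here, so reads of overlapping loci, antisense ones included, cannot be told apart (36.7% of tested loci overlap another). Between 69.8% and 72.3% of the low counts (1 to 20) were even.

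Counts were analysed with edgeR 4.0.16 in R 4.3.3. Loci passing filterByExpr (minimum count 10) were kept, libraries were scaled by TMM, and all 12 libraries entered 1 quasi-likelihood fit with treatment as the only term (9 residual degrees of freedom). P-values were adjusted by Benjamini-Hochberg over all 23203 tested loci. CPM uses the scaled library sizes, and deviations per library are log2 CPM with a prior count of 2. The SE is the size of logFC over the root of the F statistic. Unless stated, tests are two-sided. Replicates are described as biologically independent. No pair of replicates agreed within sampling noise.

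The fit was tested on simulated counts, drawn independently for each locus and library with the spread estimated from these data. It called 71 of 98 loci changed 2-fold, 91 of 97 changed 4-fold and 6 of 22776 unchanged ones. The simulated libraries hold no shift shared by many loci, so this cannot show how the fit behaves where such shifts occur. DESeq2 1.42.0 and limma 3.58.1 served as alternatives. Every called locus was accounted for by role, with the 12 of smallest p in each direction named. In each of 52 function lists the member of smallest p, the 2 of largest change at an unadjusted p under 0.05 and further members where a list is described could be named, as could genes of steroid pathways that the study named. Members and lists were chosen with earlier results of these data known. Promoters were read from the RefSeq TAIR10.1 genome, whose locus IDs match all those in the counts, and motifs were searched on both strands.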

Additional observations from a re-analysis of the deposited data

Results flagged for a closer look

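Of 148 groups of 4 libraries checked, 4 held a library far from the other 3, and chance alone marks about 1 in 20. For *CYP81D11*, DMSO replicate 4 stood at 13.2 CPM, while its 3 fellow replicates lay between 6.44 and 7.26 CPM. For *MYB15*, DMSO replicate 2 had 33.7 CPM against 12.0 to 15.3 CPM. For *AT1G15125*, TO replicate 1 had 137 CPM against 86.7 to 93.6 CPM, and for *GSTU2*, TO replicate 3 had 0.627 CPM against 0.348 to 0.374 CPM.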

How the results depend on the processing

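All 66 called loci kept their sign in every fit in which they were tested (61 under the filter of 10 counts in every library, 46 without overlapping loci). The numbers called did change. Higher loci numbered 57, against 183 with DESeq2, 106 with limma and sample weights, 43 with TO and DMSO libraries fitted alone and 26 to 55 with 1 library left out. Lower loci numbered 9, against 136 with DESeq2, 28 with limma, 14 with every locus that had a count, 1 with TO and DMSO alone and 0 to 8 with 1 library left out. Without DMSO replicates 1 and 2, chosen after seeing the data, 8 higher and 0 lower were called. With the replicate number as a block, 62 and 11 were called over 12 libraries (46 of the 57 and 4 of the 9) and 26 and 4 over 8 (19 and 2). The numbers do not pair the samples (correlations of same-numbered deviations 0.12, -0.14, -0.03 and 0.16).

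Without overlapping loci, 711 were higher and 712 lower at an unadjusted p. Groups did not overlap in 947 to 1261 loci above and 855 to 1144 below with 1 library left out (a smaller group separates more easily), in 2265 and 2166 without DMSO replicates 1 and 2, and in 371 below without overlapping loci. TO over PO gave 6 calls with DESeq2. With the 250 bases before the start alone, 19.2% of all loci held TGACG, 9.6% GAANNTTC, 7.35% CGCGT, 6.73% CACGTG and 28% a W-box. The logFC of *PAL1* was 0.052 without DMSO replicates 1 and 2. Signs turned for genes near 0: with 1 library left out, logFC lay between -0.117 and 0.016 for *DET2*, -0.044 and 0.105 for *BSK1* and -0.013 and 0.082 for *BRI1*, and without DMSO replicates 1 and 2 it was 0.033, -0.061 and -0.016. With limma it was -0.0055 for *BSK1*. The cause was not tested. Rare transcripts such as *GSTU2* and *AT3G56600* rest on few counts.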
